A study of Mus musculus with 2 samples.

Results

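Ependymal cells of the adult mouse brain were examined in a single-cell RNA library of cells sorted for a Nestin-GFP reporter. The cells were chosen by counts of unique molecular identifiers (UMIs) of 4 genes, Ccdc153, Tmem212, Foxj1 and Dynlrb2. A cell was a member when these counts summed to at least 5 UMIs, among cells with more than 200 and fewer than 4000 genes and under 40% of UMIs in mitochondrial genes. The rule selected 107 of 4151 kept brain cells (2.58%, 95% interval 2.12 to 3.11%). The whole series held 9759 kept cells of 10621 barcodes. The study compared cells that carried the reporter in the brain with those in the lung, 1 library per tissue. All came from adult Nestin-GFP transgenic mice of about 6 weeks, for which the labels give the strain C57BL/6, but in the methods transgenic lines were bred with stock of CD1 or mixed CD1 and C3H background. No further allele or treatment is given. Minced tissue was treated with trypsin, GFP+ cells were sorted by flow cytometry, and libraries were made with a droplet kit that reads the 3′ ends of transcripts (10x Chromium, version 3 chemistry). The reporter is driven by regulatory elements of Nestin, an intermediate filament gene of neural stem cells (NSCs), so the cells are those that passed a GFP gate and not all ependymal cells of the brain. The tissue was whole brain by the methods for dissociation, each library was 1 biological replicate, and the number of animals behind it is not given in the sources used here.

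Ependymal cells form the ciliated epithelium that lines the brain ventricles. Each carries a tuft of motile cilia whose beat moves cerebrospinal fluid. The core of a motile cilium is the axoneme, in which outer doublets of microtubules surround a central pair, dynein arms drive the sliding of doublets, and radial spokes and nexin links shape the bend. Foxj1 and the RFX factors are the transcription factors best known for switching on the genes of motile cilia.

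The members were compared with quiescent glia and with all other kept brain cells. Quiescent glia were 861 kept cells with at least 10 UMIs of the glial genes Slc1a2, Slc1a3 and Aldoc and none of the 4 rule genes, and the other kept brain cells numbered 4044. Because all cells came from 1 library and the members were selected on measured values, no test was made and no p-value is given. Levels are counts summed over the cells of a group, per 1000000 UMIs of the group (CPM), and each ratio carries an exact 95% interval for counting error only. A gene was called higher or lower where its ratio was at least 4 or at most 0.25 and the interval excluded 1. The members were deeper than the cells they were compared with, at a median of 6930 UMIs (1683 to 10934) and 3002 genes per cell, against 4211 UMIs in quiescent glia and 4151 in the other cells. Their median share of mitochondrial UMIs was 4.14%, against 4.59% in quiescent glia. Of the kept barcodes, 11 occurred in both libraries, and 1 of these was an ependymal barcode. The part of depth in the ratios was not tested, and shares of cells are also given at equal depth for some genes.

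The 4 rule genes are given as a description, since they chose the cells. Tmem212, which encodes a membrane protein, had 0 to 65 UMIs per cell with a median of 19. Ccdc153, a coiled-coil gene used as an ependymal marker, had 0 to 53 UMIs per cell with a median of 13. Dynlrb2, a dynein light chain of the roadblock type, had 0 to 29 UMIs per cell with a median of 9, and Foxj1 had 0 to 12 UMIs per cell with a median of 3. Most members therefore carried all of them, and a zero count of Tmem212, Ccdc153, Dynlrb2 and Foxj1 occurred in 5, 3, 3 and 8 cells. In RefSeq build GRCm38.p6 the genes lie at chr3:27866065-27896391 (Tmem212), chr9:44240677-44247306 (Ccdc153), chr8:116505015-116515915 (Dynlrb2) and chr11:116330704-116335499 (Foxj1). In the endothelial reference, 317 kept brain cells with at least 10 UMIs of the vessel genes Cldn5, Flt1, Pecam1 and Ly6c1 and a median depth of 3866 UMIs, no cell had more than 1 rule UMI and 7 cells had 1.

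The sum of the rule genes left a sparse zone between members and other cells. It was 0 in 3903 kept brain cells, 1 in 116 and 2 to 4 in 25. Among members it was 5 to 9 in 8 cells and 30 or more in 74, with a median of 46. Of the 7 cells with 4 rule UMIs, just outside the limit, 6 held 20 to 48 UMIs of the Dnah, Cfap, Rsph and Tekt genes and 1 held 2. Of the 4 cells with 5 rule UMIs, just inside it, 3 held 38 to 55 such UMIs and 1 held 5. The last cell also had 16 UMIs of the 3 glial genes. In the lung no cell of 5608 passed the rule, the highest sum was 3, and 11 lung cells had at least 1 rule UMI.

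**Figure D1:**
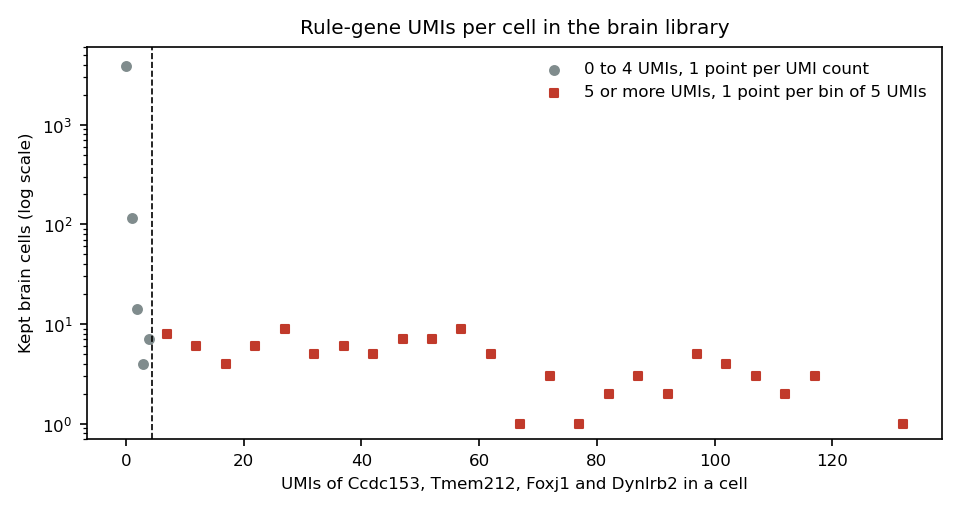
Kept brain cells (vertical axis, log scale) by their summed UMIs of Ccdc153, Tmem212, Foxj1 and Dynlrb2 (horizontal axis). Grey points stand for single counts from 0 to 4, red squares for bins of 5 UMIs, and the dashed line is the limit of the rule, with 3903 cells at 0 and 107 cells to its right.

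Genes of 4 families named for their place in the motile axoneme were far more abundant in the members than in quiescent glia. Symbols of the deposited table were matched to current names, which gave 63 entries for 59 genes, 37 of them under an older symbol. Of the 53 entries with at least 20 UMIs over both groups, 49 were higher and 0 were lower, at a median ratio of 82.9. For comparison, 9.01% of the 12244 genes with that many UMIs were higher and 9.25% were lower, and the median ratio over all of them was 0.852. Scaled by the median ratio of common genes instead of total UMIs, 967 genes were higher and 1486 lower. The rule selected for these cells, so the counts describe them and are read no further. Summed over the families, the ratio was 29.4-fold (28.0 to 30.9).

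The Dnah genes encode the heavy chains of axonemal dynein, the motors of the cilium. All 11 that could be compared were higher, at a median ratio of 176. Their ratios ran from 7.86-fold (5.47 to 11.4) for Dnah7b to 1330.3-fold (366 to 11016) for Dnah12. Dnah12, an inner arm chain, had 492 UMIs in the members and 2 in quiescent glia, with 0 to 16 UMIs per cell with a median of 5. Dnah6 had 429.8 CPM in the members, 1.01 in quiescent glia and 6.71 in the other cells. The outer arm chains Dnah5, Dnah9 and Dnah11 had 278, 279 and 136 CPM, and Dnah5 was 54.9-fold (34.6 to 91.8) higher than in quiescent glia. Dnah7a, Dnah7b and Dnah7c are close copies whose reads the authors' counting could have split, so their separate levels are uncertain.

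The Cfap genes encode cilia and flagella associated proteins of several positions in the axoneme. Of 33 entries compared, 30 were higher, at a median ratio of 71.0. Cfap126, a factor of basal body and axoneme organization listed as 1700009P17Rik, had 0 to 18 UMIs per cell with a median of 6 and was 225-fold (138 to 397) higher. Cfap45, an inner protein of the doublet microtubules listed as Ccdc19, was 392-fold (179 to 1074) higher. Cfap54, a central pair protein listed as Gm872, was 71.0-fold (49.0 to 107) higher. Cfap20 and Cfap36, listed as Gtl3 and Ccdc104, had clear counts in quiescent glia too, 83.3 and 95.2 CPM, and were 4.42-fold (3.75 to 5.21) and 4.67-fold (4.02 to 5.44) higher. With median-ratio scaling both fall short of 4-fold. The 3 entries called neither way were Cfap97 (4933411K20Rik), Cfap410 (1810043G02Rik) and Cfap97d1 (1700006E09Rik), with ratios of 1.49 (1.07 to 2.05), 3.20 (2.16 to 4.69) and 0.983 (0.246 to 2.89).

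The Rsph genes encode radial spoke proteins and the Tekt genes encode tektins, filament proteins inside the doublets. All 5 Rsph entries compared were higher. Rsph1, a protein of the spoke head, had 1856 CPM against 6.33 in quiescent glia, 3.89 in the other cells and 1.58 in the endothelial reference. It was found in 104 of 107 members. Rsph4a, another head protein, was 260.2-fold (131 to 607) higher, and Rsph9 7.62-fold (6.28 to 9.27). Of the tektins, Tekt1, Tekt2 and Tekt4 were higher, at 49.8-fold (35.6 to 71.6), 36.1-fold (10.7 to 189) and 215-fold (97.5 to 593), while Tekt5, with 12 UMIs in the members, had a ratio of 2.596 (1.19 to 5.36). The 10 family entries with fewer than 20 UMIs over both groups included Dnah8, Dnah14, Dnah17 and Tekt3.

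**Figure D2:**
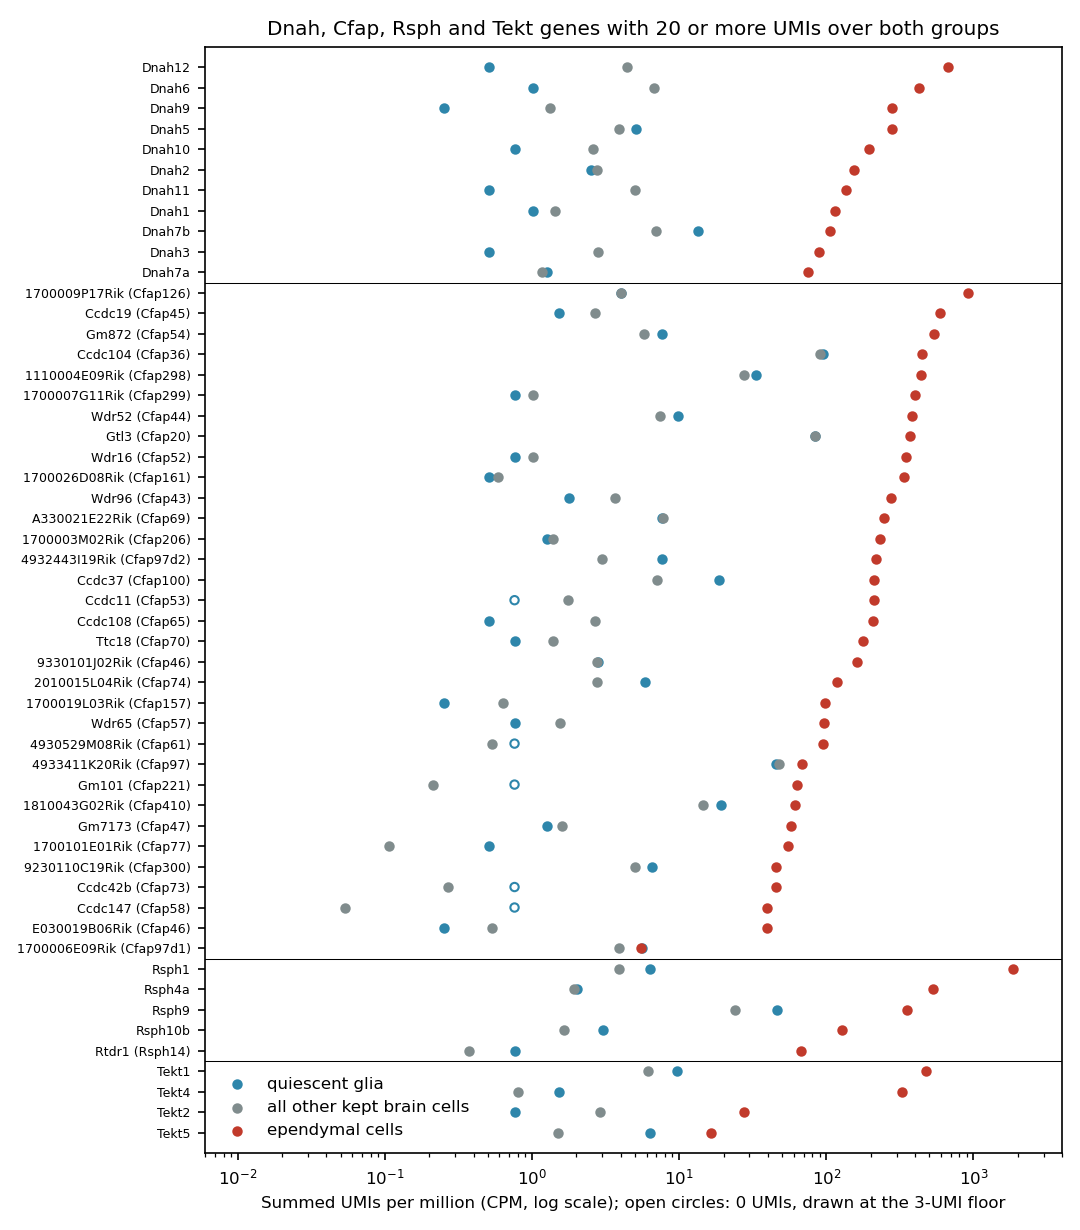
Levels of the 53 Dnah, Cfap, Rsph and Tekt entries with at least 20 UMIs over both groups, in CPM (horizontal axis, log scale), with current names in parentheses. Red points are the 107 ependymal cells, blue the 861 quiescent glia and grey the other kept brain cells, and in 49 entries the red point lies at least 4-fold to the right of the blue one.

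The other parts of the axoneme were examined gene list by gene list. Of the 15 central pair genes, 15 were higher, at a median ratio of 100.04. Hydin, a giant central pair protein whose loss causes hydrocephalus in mice, had 248 UMIs in the members and 1 in quiescent glia, and Spag17 had 262 and 1. Ak7, an adenylate kinase of the cilium, was 402-fold (194 to 1004) higher and Enkur 100.04-fold (68.4 to 152). Mycbp, which also binds Myc outside cilia, was the least different of the list at 9.84-fold (7.14 to 13.7).

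Of 12 nexin link and ruler genes, 11 could be compared and 11 were higher, at a median ratio of 52.6. Ccdc39, the molecular ruler that sets the repeat of the axoneme, was 12.9-fold (10.4 to 16.1) higher and Iqcg, a subunit of the nexin link, 42.3-fold (30.8 to 59.3). The further radial spoke genes were also higher in 11 of 11, at a median ratio of 65.8. Nme5 was 39.2-fold (28.6 to 54.8) higher and Lrrc23 65.8-fold (40.7 to 113). Proteins inside or along the doublets followed, with 16 of 18 higher at a median of 56.3. Fam183b had 0 to 29 UMIs per cell with a median of 11, and Tppp3, a tubulin polymerization protein, had 0 to 20 UMIs per cell with a median of 8. Meig1 was 229-fold (138 to 411) higher. Nme7 was called neither way, at a ratio of 2.54 (0.951 to 6.22).

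Light and intermediate chains of dynein gave a mixed picture. Of 15 compared, 11 were higher and 0 lower, at a median ratio of 9.69. The axonemal chains Tctex1d4, Dnali1 and Dnaic1 were at least 815-fold, 247-fold (112 to 679) and 16.3-fold (11.9 to 22.6) higher. Chains that also serve cytoplasmic dynein were not, or barely so. Dynll1 was 4.20-fold (3.86 to 4.58) higher, while Dynll2 and Dynlrb1 had ratios of 1.40 (1.12 to 1.74) and 0.704 (0.569 to 0.863). Dynlrb1, the close relative of the rule gene Dynlrb2, had 144 CPM in the members and 204 in quiescent glia.

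Factors that dock or assemble dynein arms were higher in 15 of 17, at a median ratio of 27.9. Armc4, an outer arm docking protein, was 326-fold (109.9 to 1597) higher, and Zmynd10 and Dnaaf1, which act in the cytoplasm on arm assembly, had 146 and 47 UMIs in the members against 2 and 0. Ruvbl1 and Ruvbl2, chaperone ATPases found in every cell, were 5.07-fold (3.92 to 6.56) and 6.34-fold (5.09 to 7.89) higher. Dnaaf2 and Pih1d1 were called neither way, at 2.704 (1.67 to 4.29) and 1.69 (1.07 to 2.58).

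Counted once each, the genes of the 4 families and of these lists numbered 136 with enough UMIs, of which 124 were higher and 0 lower at a median ratio of 57.4. They took 3.96% of the UMIs of the median member, from 0.484 to 5.41%, and 0.158% of those of the median quiescent glial cell, where the highest cell reached 0.997%. The 4 families alone took 1.45% (0.127 to 2.39%) of the UMIs of a member and 0.0388% of the median glial cell.

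**Figure D3:**
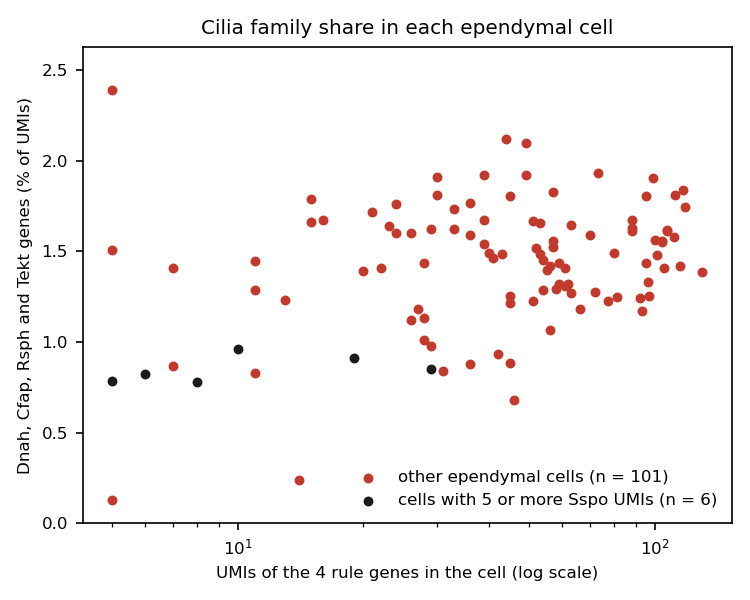
Share of a cell's UMIs in Dnah, Cfap, Rsph and Tekt genes (vertical axis, percent) against its UMIs of the 4 rule genes (horizontal axis, log scale), 1 point per ependymal cell. Red points are the 101 members with at most 1 Sspo UMI, which span 0.127 to 2.39%, and black points the 6 with at least 5 UMIs of Sspo, a secreted protein gene, which lie between 0.781 and 0.963%.

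Genes that all ciliated cells use, including those with a single primary cilium, differed less. Intraflagellar transport carries cargo along the cilium in complex B trains outward and complex A trains inward. Of 20 complex B and kinesin genes, 11 were higher at a median ratio of 4.42. Ift20 had 0 to 11 UMIs per cell with a median of 3 and was 4.28-fold (3.74 to 4.90) higher (3.53-fold with median-ratio scaling), and Ift88 was 16.2-fold (11.7 to 22.7) higher. Ift27 and the kinesin motor Kif3a had ratios of 2.66 (2.29 to 3.09) and 2.22 (1.85 to 2.65). Of 11 complex A and dynein-2 genes, 8 were higher at a median of 5.82, and of the 3 that were not, Dync2h1, the return motor, had a ratio of 3.83 (3.10 to 4.73) and Tulp3 one of 0.657 (0.461 to 0.915).

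The BBSome moves membrane proteins in and out of cilia. Of 11 genes, 4 were higher, at a median ratio of 3.82. Ttc8 was 4.17-fold (3.18 to 5.45) higher, and Bbip1 and Mkks had ratios of 1.18 (0.970 to 1.42) and 0.591 (0.378 to 0.887). Of 21 basal body and centriole genes, 7 were higher and 1 lower at a median of 2.50. The centrins Cetn2 and Cetn4 were 9.40-fold (8.04 to 11.0) and 34.0-fold (24.1 to 49.2) higher, and Ccdc67 (Deup1), which builds the deuterosomes of multiciliated cells, had 40 UMIs against 2. Plk4, the kinase that starts centriole duplication, was the gene called lower, with 1 UMI in the members and 76 in quiescent glia. Against the 594 glial cells with at least 30 glial UMIs, Plk4 had a ratio of 0.177 (0.00429 to 1.103) and was called neither way.

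Of 22 regulators of multiciliation that could be compared, 4 were higher and 2 lower, at a median ratio of 0.846. Among all genes compared with quiescent glia, 9.01% were higher and 9.25% lower. The higher ones were Myb, Rfx2, Rfx1 and Trp73 (p73), which act upstream of or beside Foxj1. Myb was 23.2-fold (12.8 to 44.9) higher, Rfx2 9.24-fold (5.45 to 15.98), and Trp73 had 28 UMIs in the members and 0 in quiescent glia. Rfx3, the RFX factor with the most UMIs in the members, had a ratio of 2.56 (2.02 to 3.23). Gmnn (geminin), which opposes the multiciliation program and marks cycling cells, had 0 UMIs against 125, and Notch1 had 2 against 200. The 594 glial cells with at least 30 glial UMIs held 29 Gmnn UMIs, and against them Gmnn was called neither way and Notch1 remained lower. Mcidas, Gmnc and Foxn4, which start the program in immature cells, were among the genes with too few UMIs to compare.

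Tubulins split by isotype. Of 29 tubulin and tubulin-modifying genes, 10 were higher and 6 lower, at a median ratio of 1.17. Tubb4b, the beta-tubulin of motile cilia, had 3607 CPM against 281 in quiescent glia and 239 in the other cells. Tuba1a was 5.25-fold (5.03 to 5.47) higher than in quiescent glia, with a ratio of 1.34-fold (1.30 to 1.38) to the other cells. With cells of 4000 or more genes included its ratio to quiescent glia was 3.74, short of 4-fold. The beta-tubulins Tubb2a, Tubb2b, Tubb3 and Tubb5 were lower, at ratios of 0.217 (0.172 to 0.270), 0.0847 (0.0651 to 0.108), 0.209 (0.135 to 0.308) and 0.209 (0.173 to 0.250). For Tubb5 and Tubb3 the ratio was 0.509 and 0.518 against the 594 glial cells with at least 30 glial UMIs. Enzymes that add glutamate or glycine to tubulin were among the higher genes, with Ttll3 10.7-fold (8.62 to 13.3) higher, Ttll9 34.0-fold (15.2 to 89.4) and Ttll6 at 71 UMIs against 1. Atat1, which acetylates alpha-tubulin, had a ratio of 0.913 (0.633 to 1.29).

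Promoters were searched because the cilia genes were higher together and RFX factors bind a known element, the X-box. Windows of 250 bases before to 50 after the start came from RefSeq (GRCm38.p6) and covered 3 of the 4 rule genes and 48 of 59 family genes. On both strands, 3 motifs were sought, the X-box half-site GTTGCC, an X-box pair (GTTNCC and GGNAAC with 0 to 3 bases between) and the forkhead motif TGTTTAC, and 181 of 253 genes with a pair also held the half-site. The half-site stood in 37.5% of the family genes (18 of 48), 57.1% of central pair genes (8 of 14) and 53.3% of doublet genes (8 of 15), but 28.6% of dynein chain genes (4 of 14) and 25% of BBSome genes (3 of 12), against 14.1% of all 27025 genes with a window and 15.7% of the genes compared with quiescent glia. It stood in 29.1% of genes called higher and 11.1% of those called lower. The pair stood in 3.88% of the higher, 0.469% of the lower and 0.936% of all genes, and in 1 of the 48 family genes. The forkhead motif stood in 4.11% of the higher, 3.87% of the lower and 4.05% of all genes, and in 8.33% of family genes (4 of 48). Of the other listed cilia genes, Ift57, Ccdc151, Cep41 and Ttc26 also held a pair before the start and are not shown. The following windows show the pair, in capitals, in 5 genes called higher, and the half-site, in capitals, in 2 rule genes.
Fam183b, chr11:58801961-58801996, minus strand: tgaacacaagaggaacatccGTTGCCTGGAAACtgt
Cfap298, chr16:90934884-90934938, minus strand: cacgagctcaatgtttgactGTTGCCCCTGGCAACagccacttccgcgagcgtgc
Cfap298, chr16:90935004-90935057, minus strand: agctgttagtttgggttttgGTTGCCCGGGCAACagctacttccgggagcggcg
Iqca, chr1:90153503-90153556, minus strand: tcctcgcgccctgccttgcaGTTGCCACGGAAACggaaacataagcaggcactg
Bbs7, chr3:36613477-36613530, minus strand: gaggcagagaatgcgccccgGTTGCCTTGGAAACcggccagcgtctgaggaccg
Dydc1, chr14:41072832-41072884, plus strand: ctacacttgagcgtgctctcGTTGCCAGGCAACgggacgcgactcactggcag
Ccdc153, chr9:44240505-44240550, plus strand: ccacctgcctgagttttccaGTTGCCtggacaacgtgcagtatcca
Dynlrb2, chr8:116504944-116504989, plus strand: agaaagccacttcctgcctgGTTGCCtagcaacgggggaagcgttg

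These matches describe letters in a window and not bound sites. Cfap298, listed as 1110004E09Rik, held 2 pairs, 55 and 175 bases before its start. In the members it had 444 CPM and was 13.4-fold (10.9 to 16.5) higher than quiescent glia. Fam183b, whose pair lay 4 bases before the start, was 434-fold (262 to 777) higher, and Iqca, a nexin link protein with the pair at 87 bases, had 303 UMIs against 2. Bbs7 was 5.75-fold (3.797 to 8.71) higher, and Dydc1 had 20 UMIs against 0. The half-sites of Ccdc153 and Dynlrb2 lay 147 and 46 bases before their starts. The forkhead letters were in none of the 3 rule gene windows.

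Genes of the epithelium that carries the cilia showed a narrower set of differences. Planar cell polarity aligns the beat of neighbouring cells, and 4 of 16 such genes were higher and 0 lower, at a median ratio of 2.02. Vangl1 was 8.04-fold (5.20 to 12.5) higher, Fzd3 4.37-fold (3.29 to 5.80) and Dchs1 4.10-fold (3.11 to 5.38). Celsr1 had a ratio of 3.24 (2.43 to 4.31) and Vangl2 one of 0.654 (0.418 to 0.985).

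Of 21 junction and adhesion genes, 4 were higher and 4 lower at a median ratio of 0.825. Cd24a, a surface protein used to sort ependymal cells, had 0 to 14 UMIs per cell with a median of 3 and was 7.12-fold (6.05 to 8.39) higher than quiescent glia but 1.12-fold (1.003 to 1.25) against the other cells. Its ratio to quiescent glia was 3.44 in the 29 members left when cells with UMIs of other types, a list that holds Cd24a, were removed. Cdhr3 and Cdhr4, protocadherin-related genes, had 202 and 21 UMIs against 1 and 0. Ocln (occludin) of tight junctions was 109.5-fold (41.2 to 412) higher, though its level of 111 CPM was below the 369.8 CPM of the endothelial reference. Of the lower genes, the claudin Cldn10 had a ratio of 0.0413 (0.0272 to 0.0603), Gjb6 (connexin 30) 0.0410 (0.0176 to 0.0810) and Vcam1 0.0638 (0.0305 to 0.118). Gja1 (connexin 43) had 416 CPM against 1486, a ratio of 0.280 (0.249 to 0.314) short of 4-fold, and it was called lower at 0.208 (0.185 to 0.233) against the 594 glial cells with at least 30 glial UMIs.

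Of 20 water and ion transport genes, 2 were higher and 7 lower at a median ratio of 0.559, beside 9.01% higher and 9.25% lower of all genes. Slc16a11, a monocarboxylate transporter, was 5.65-fold (3.01 to 10.6) higher. Slc4a4, a bicarbonate cotransporter, and Car2, a carbonic anhydrase, were lower at 0.174 (0.144 to 0.208) and 0.0762 (0.0470 to 0.117). The water channel Aqp4 had 0 to 16 UMIs per cell with a median of 4 and a ratio of 0.854 (0.773 to 0.942), and the potassium channel Kcnj10 one of 1.19 (0.984 to 1.43). Slc2a1, the glucose transporter GLUT1, had a ratio of 3.997 (3.46 to 4.61), just under the limit.

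Of 25 genes of secreted or fluid-related proteins, 7 were higher and 4 lower at a median ratio of 1.06. Dbi, which encodes an acyl-CoA binding protein, had 6 to 317 UMIs per cell with a median of 127 and was 8.81-fold (8.58 to 9.05) higher than quiescent glia and 23.3-fold (22.8 to 23.8) higher than the other cells. Calml4 and Spint2 were 497-fold (251 to 1155) and 124-fold (51.8 to 390.3) higher, and Mia had 42 UMIs against 3. Cst3 (cystatin C) and Ptn (pleiotrophin) were lower at 0.148 (0.140 to 0.155) and 0.103 (0.0858 to 0.122), and Cst3 was at 0.340 in the 29 members left when cells with UMIs of other types were removed. Apoe had a ratio of 0.395 (0.384 to 0.406) and Clu one of 1.07 (1.03 to 1.12). Among 22 metal and redox genes, 2 were higher and 1 lower at a median of 1.38, shares close to or below the 9.01 and 9.25% of all genes. The metallothionein Mt3 had 2 to 106 UMIs per cell with a median of 43 and a ratio of 2.66 (2.57 to 2.76) to quiescent glia, and was 11.0-fold (10.7 to 11.4) higher than the other cells.

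Many genes shared by NSCs and astrocytes were lower in the members than in quiescent glia. The quiescent glia were themselves chosen on glial genes, which raises such genes in them, and the size of this effect was not tested. Of 29 genes, 1 was higher and 15 were lower, at a median ratio of 0.173. The summed ratio of the list was 0.582 to quiescent glia and 1.39 to all other cells, where the median ratio was 0.343. Vim (vimentin) was the higher gene, with 0 to 109 UMIs per cell with a median of 10 and a ratio of 8.90 (8.18 to 9.68). Transcription factors of neural stem and glial identity were present in the members at about the glial level, Sox2 at 689.9 against 622 CPM and Sox9 at 578 against 497. Gfap had a ratio of 0.833 (0.671 to 1.02), and 1.74 in the 29 members left when cells with UMIs of other types were removed. Lower genes were Glul (glutamine synthetase) at 0.0664 (0.0522 to 0.0834), the Notch target Hes5 at 0.0175 (0.00798 to 0.0332) and Fabp7 at 0.111 (0.0891 to 0.136).

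Nes itself, the gene whose elements drive the reporter (chr3:87971093-87980451), was sparse. It had 47 UMIs in 33 of 107 members and at most 3 in a cell. Its level was 64.3 CPM in the members, 29.6 in quiescent glia, 64.7 in all other cells and 356 in the endothelial reference. A Nes UMI was found in 30.8% of members, 9.52% of quiescent glia and 62.1% of endothelial reference cells. After each cell was thinned to 1000 UMIs, which left out 16 glial and 1 endothelial cell, the shares were 5.61, 2.37 and 28.8%. The sort selected for GFP in all of these cells, so none is a group that should lack Nes.

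Of 26 cell cycle genes, 1 was higher and 15 were lower, at a median ratio of 0.206, but this depended on which glia were taken. Cdkn1a, an inhibitor of the cycle, was 11.1-fold (8.37 to 14.8) higher. Top2a had 5 UMIs in 2 members, and a ratio of 0.0442 (0.0143 to 0.104). At least 3 UMIs of Top2a and Mki67 were found in 42 of the 861 glial cells and in 1 member. Against the 594 glial cells with at least 30 glial UMIs, of which 4 had so many, 2 of 16 genes were higher and 1 lower, and Top2a had a ratio of 0.690. In that comparison 10.5% of 11130 genes were higher and 8.46% lower.

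Of 18 immediate early and stress genes, 3 were higher and 0 lower at a median ratio of 1.75, and against glia with at least 30 glial UMIs 5 of 16 were higher at a median of 2.83. The share of all genes called higher was 9.01% in the first comparison and 10.5% in the comparison with glia of at least 30 glial UMIs. These 3, Klf2, Hspb1 and Atf3, had 55, 48 and 35 UMIs, and Fos had a ratio of 1.81 (1.57 to 2.08). Of 11 antigen presentation and interferon genes, 2 were higher and 0 lower, at a median ratio of 1.38 and a summed ratio of 3.46-fold (3.16 to 3.78). Ifitm3, an antiviral membrane protein, was 17.1-fold (14.3 to 20.5) higher and H2-Ab1, a class II chain, 25.7-fold (8.54 to 104), and H2-K1 had a ratio of 1.73 (1.40 to 2.12).

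**Figure D4:**
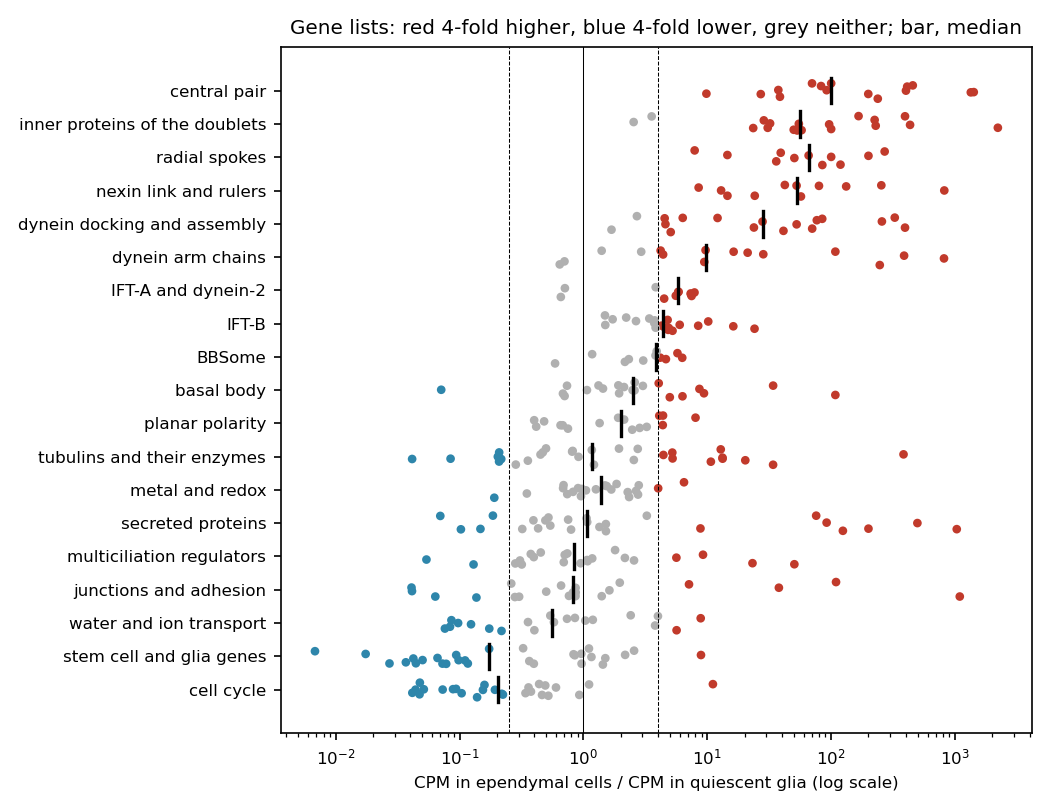
Ratio of CPM in ependymal cells to CPM in quiescent glia (horizontal axis, log scale) for genes with at least 20 UMIs, 1 point per gene in the list named at left. Red points were called higher, blue lower and grey neither, dashed lines mark 4-fold and bars the list median, which runs from 100.04 for the central pair to 0.173 for stem cell and glia genes.

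Against all other kept brain cells, 9.22% of 15505 genes were higher and 9.64% lower, at a median ratio of 0.870. With median-ratio scaling 1236 were higher and 1908 lower. In that comparison, 52 of 56 family entries and 15 of 15 central pair genes were higher, and 0 were lower. Of stem cell and glia genes 2 were higher and 10 lower of 29, and of water and ion transport genes 3 and 3 of 27. The secreted list had 10 higher and 4 lower of 25, with Clu 4.54-fold (4.34 to 4.75) higher, and Apoe had a ratio of 1.53-fold (1.49 to 1.57). Aqp4 had a ratio of 3.70-fold (3.36 to 4.08) to these cells.

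Outside all lists, the genes with the largest ratio to quiescent glia, ranked by the interval bound nearest 1, were largely genes with no assigned function. They included 1600029I14Rik with 257 UMIs in the members and 0 in quiescent glia, 1700001C02Rik (Fam166c) with 404 and 2, and 1700012B09Rik with 489 and 3. Efcab10 and Fam216b had 258 and 328 UMIs against 1 and 2. Several named genes stood beside them. Hdc, the histidine decarboxylase that makes histamine, was found in 86.9% of members and was 545-fold (211 to 2009) higher. Crygn, a crystallin, was 489-fold (189.5 to 1806) higher, Pifo, a factor of cilium disassembly, 386-fold (176 to 1057), and Pcp4l1 353-fold (191 to 739.9). Tm4sf1, a tetraspanin-like protein, had 0 to 29 UMIs per cell with a median of 8 and was 408-fold (238 to 769) higher than quiescent glia and 15.04-fold (13.9 to 16.3) higher than the other cells. Tm4sf1 and Pcp4l1 had 1343 and 894 CPM in the members and 931 and 671 in the endothelial reference, so both were also abundant in vessel cells. 1110017D15Rik was 415-fold (236 to 805) higher. Against all other brain cells, Stoml3, Acot5, Dmkn and Capsl joined these genes, with 127, 173, 348 and 406 UMIs in the members and 3, 6, 18 and 24 in all the others.

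The 15 lowest genes outside the lists were read against cells chosen on glial genes, and several have no assigned function. Of the named ones, Mfge8, a secreted protein that tags cells for engulfment, had 38.3 CPM in the members and 1479.8 in quiescent glia. Cspg5 and Bcan, which encode proteoglycans, had ratios of 0.0400 (0.0299 to 0.0525) and 0.0444 (0.0303 to 0.0628). Vegfa had 4 UMIs in the members and 1027 in quiescent glia, and the glutamate receptor genes Grm3 and Grin2c had 3 and 2 against 992 and 905.

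The members were not uniform. For 1330 genes with at least 100 UMIs, the variance over cells was divided by the variance that depth alone gives. The median was 1.26, so most genes varied little beyond counting. It exceeded 2 in 214 genes and 5 in 65. The 10 genes of most excess variance were Cst3 (75.4), Ptgds (69.6), Gm26924 (55.2), Ttr (51.9), Malat1 (49.6), Apoe (49.0), Wfdc2 (43.3), Spp2 (40.8), 6330403K07Rik (33.3) and Sspo (31.4). Cst3 ranged from 0 to 340 UMIs per cell and Apoe from 0 to 266. For Ttr, Wfdc2, Spp2 and Sspo the excess came with a few cells. Without the 6 members with at least 5 Sspo UMIs, the values were 18.8 for Ttr, 0.995 for Wfdc2, 2.96 for Spp2 and 0.958 for Sspo. The cilia genes Rsph1 and Fam183b lay above the median but far below these genes, at 2.15 and 2.13.

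These 6 cells carried Sspo (chr6:48446230-48501262), which encodes SCO-spondin, the giant secreted protein of the subcommissural organ, a gland of modified ependyma in the roof of the third ventricle. They had 14, 29, 30, 32, 34 and 48 Sspo UMIs, while no other member had more than 1. The cells were singled out after these values were seen, so what follows describes them without a test. Spdef, a transcription factor of secretory cells, had 3 to 15 UMIs in each of the 6 and 2 UMIs in the other 101 members together. Wfdc2, a protease inhibitor, had 5 to 56 UMIs in each against at most 1 elsewhere, and Spp2, a secreted phosphoprotein, 14 to 51 against at most 3. The 6 cells also held 43 of 48 C1ql1 UMIs and 16 of 16 Rax UMIs. Ttr (transthyretin), the leading product of the choroid plexus, had 92 UMIs in 4 of them, up to 73 in a cell, and 19 UMIs in 1 other member.

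The Sspo cells were lower in many genes of the rest. Their ratio to the other members was 0.0715 (0.0369 to 0.125) for Tmem212, which was found in 1 of the 6, and 0.0725 (0.0331 to 0.138) for Ccdc153, but 0.540 (0.380 to 0.747) for Dynlrb2 and 0.661 (0.388 to 1.06) for Foxj1. They passed the rule with sums of 5, 6, 8, 10, 19 and 29 UMIs. Csrp2, Rarres2 and Gja1 had 0 UMIs in them and 667, 453 and 304 in the others. Clu, Mt1 and Apoe had ratios of 0.0185 (0.00382 to 0.0542), 0.0431 (0.0197 to 0.0820) and 0.100 (0.0711 to 0.137). Cilia family genes as a whole stood at 0.595 (0.538 to 0.657) of the others and Dnah genes at 0.309 (0.220 to 0.423). Immediate early genes moved with them, at a ratio of 4.78 (4.32 to 5.28), with Ier2 at 109.5 (62.5 to 207), and their part in the other differences was not tested. Of 13 members with at least 5 Fos UMIs, 5 were Sspo cells.

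Genes that mark position along the brain axis were sparse. Of 5 midbrain and hindbrain genes compared, 4 were higher than in quiescent glia and 1 was lower (4 and 0 against glia with at least 30 glial UMIs), and of 16 forebrain genes 2 were higher and 6 lower. Irx5 and Irx3, factors of midbrain, hindbrain and caudal diencephalon, were 48.7-fold (24.4 to 110.3) and 16.7-fold (8.27 to 36.6) higher. A UMI of Irx5 was found in 37.4% of members, 0.813% of quiescent glia and none of the 317 endothelial cells (0 counts, upper limit 0.946%). Otx2, of forebrain and midbrain, was found in 32.7% of members, 3.25% of quiescent glia and 0.315% of endothelial cells, and was 10.5-fold (6.84 to 16.4) higher. Zic4 was found in 37.4, 8.36 and 1.58% of these cells. After thinning to 1000 UMIs, Irx5 was found in 7.48% of members and in 0 glial and 0 endothelial cells, Otx2 in 7.48, 0.947 and 0%, and Zic4 in 10.3, 2.25 and 0.633%.

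Lhx2, a factor of the telencephalon and hypothalamus, was lower than in quiescent glia, at 0.0991 (0.0619 to 0.151). En1 or En2, of midbrain and hindbrain, was found in 11 members, and any of Irx1, Irx2, Irx3 and Irx5 in 55. En1 and En2 had at most 2 UMIs in a member, so a count of 0 does not show absence at this depth, and no cell was assigned to a region.

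**Figure D5:**
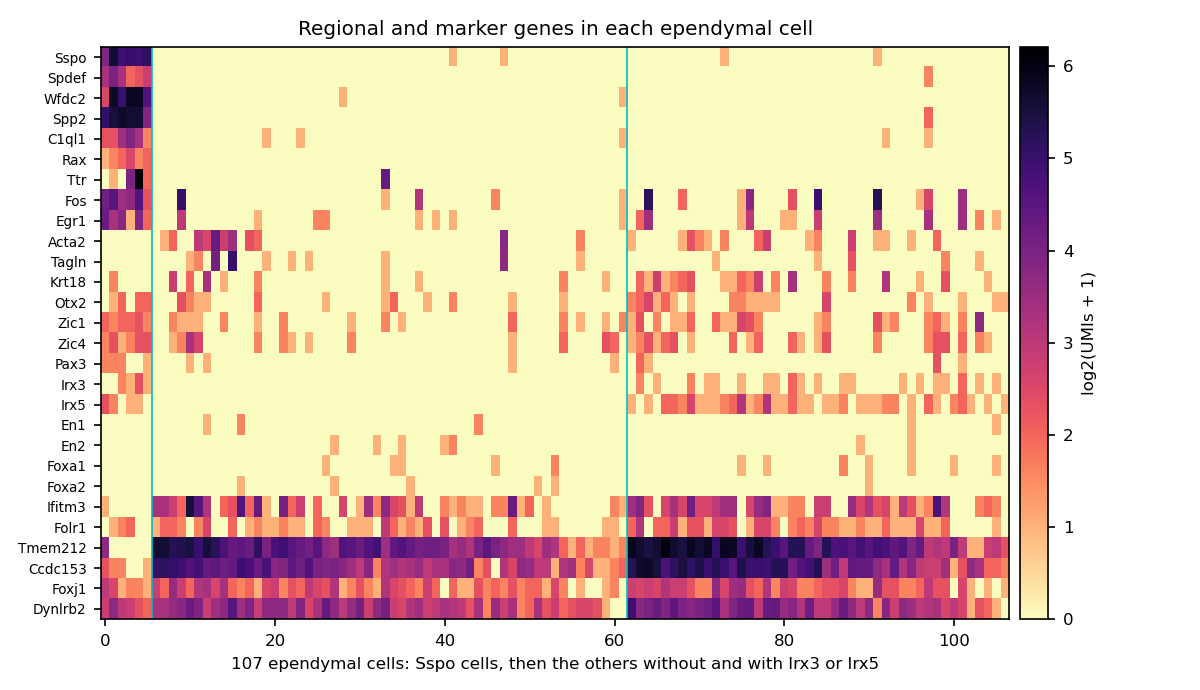
UMIs of regional, Sspo-related and rule genes (left) in each of the 107 ependymal cells (columns), coloured by log2(UMIs + 1). Vertical lines separate the 6 Sspo cells and the other cells without and with Irx3 or Irx5, and high Sspo, Spdef, Wfdc2 and Spp2 counts are seen in the first 6 columns.

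Markers of other cell types were present at low levels, with some exceptions. Of 5 choroid plexus markers compared, 5 were higher than in quiescent glia, although Aqp1, Kcne2, Kcnj13, Kl and Slc4a5 had 2, 2, 1, 1 and 0 UMIs in the members. Of the higher ones, Wfdc2 and Ttr had most of their UMIs in the Sspo cells, 1500015O10Rik was found in 85.05% of members and 9.18% of quiescent glia, and Folr1 had 176 UMIs against 1. The remaining one, Otx2, was also counted among the position genes above. Of tanycyte markers, 2 of 10 were higher and 3 lower, and Dio2 and Crym had 1 and 4 UMIs against 561 and 753. Microglial markers had 9 UMIs in all members together, and 10 of 11 were lower, at a summed ratio of 0.0224, where 11 of the 861 glial cells held at least 3 UMIs of C1q genes. Against glia with at least 30 glial UMIs 1 could be compared and 0 were lower, at a summed ratio of 0.486. Among vessel genes, of the 4 endothelial markers compared 0 were called either way. Of the other marker lists, 1 of 12 neuroblast markers was higher (Cd24a) and 7 were lower, and 4 of 6 neuronal, 5 of 7 oligodendrocyte precursor, 6 of 10 oligodendrocyte and 6 of 9 fibroblast markers were lower with 0 higher. Most of these calls were lost against glia with at least 30 glial UMIs, where 1 of 12 neuroblast, 1 of 4 neuronal, 2 of 4 oligodendrocyte precursor, 0 of 6 oligodendrocyte and 1 of 4 fibroblast markers were lower, and 1 oligodendrocyte precursor and 1 fibroblast marker were higher. In that comparison 10.5% of all genes were higher and 8.46% lower. The summed ratio went from 0.657 to 1.42 for neuroblast, 0.312 to 0.757 for neuronal, 0.236 to 0.509 for oligodendrocyte precursor and 0.347 to 1.03 for oligodendrocyte markers. Against all quiescent glia, the precursor ratio was 0.303 at a rule of 3 UMIs and 0.317 with no upper limit of genes. It was 0.613 in the 29 members left when cells with UMIs of other types were removed. Of the 78 precursor marker UMIs 46 lay in the 6 Sspo cells, mainly from C1ql1, a gene of that list with 43 UMIs in these cells. Without these cells the precursor ratio to all quiescent glia was 0.104. The fibroblast list had a summed ratio of 0.191, and 1.18 against glia with at least 30 glial UMIs. Of 5 subcommissural markers 3 were higher and 1 lower, at a summed ratio of 5.10. This ratio was 0.780 without the Sspo cells and 2.41 with Dynlrb2 left out of the rule. The 1 red cell marker compared was called neither way. Xist, expressed from the inactive X chromosome of females, was found in 52 members, and no member had a UMI of a Y-linked gene. Epithelial keratins Krt18 and Krt8 had 90 and 26 UMIs against 1 and 0.

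Smooth muscle actin stood out among the mural markers. Acta2 had 107 UMIs in 26 members, up to 18 in a cell, and 2 UMIs in quiescent glia, and Tagln had 76 against 6. The pericyte markers Rgs5 and Pdgfrb had 1 and 4 UMIs in the members, and Myh11 and Abcc9 had 0. At least 3 Acta2 UMIs were found in 14 members and at least 10 Tagln UMIs in 3.

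The neuroblast, oligodendrocyte, endothelial, mural, fibroblast, microglia and red cell lists together gave at least 5 UMIs of a single list in 78 members. With 5 list genes found in at least 40% of members and Acta2 and Tagln left out, a setting chosen after seeing the data, the number was 9. Scrublet, a doublet caller, marked 44 of 4151 kept brain cells (1.06%) and 1 member. No list of glial genes was part of the list check, although UMIs of the 3 glial genes reached 60 and 122 in single members. The cilia family ratio was 29.7 (28.3 to 31.3) without the 9 cells, and 25.3 (23.8 to 27.0) in the 29 cells left when all 78 were removed.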

How the data were processed

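RNA was measured in 2 libraries, 1 of brain and 1 of lung, of cells sorted for Nestin-GFP. The authors deposited a table of UMI counts per gene and cell for each, with no normalization. Per the submitters' processing notes, bcl2fastq 2.19.1.403, UMI-tools 1.0.0, STAR 2.7.1a and featureCounts 1.6.4 of Subread were used with genome build mm10. The annotation version and the way barcodes were selected are not given in the sources used here. The deposited tables held 4640 brain and 5981 lung barcodes, the cell numbers that the paper gives for its maps of both tissues. Some lie outside the cell filter stated in its methods, which was applied here (more than 200 and fewer than 4000 genes, under 40% mitochondrial UMIs). The cells compared here are therefore fewer than those the paper shows. A 3′ count is not scaled by length, and reads of close copies may be split or lost in counting.

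The members and the gene lists were chosen with earlier results of these data known. Counts were summed over the cells of each group and divided by their total to give CPM. The ratio of 2 groups and its 95% interval came from an exact binomial (Clopper-Pearson) interval on the counts. Intervals and floors cover counting error only and no spread between animals, since there is 1 library. Genes with at least 20 UMIs over both groups were compared. A group with 0 counts was set to a floor of 3 counts, which is 4.11 CPM in the ependymal cells, 0.759 in quiescent glia and 0.160 in the other cells, and ratios against it are lower bounds, also within list medians. The members held 730530 UMIs in all, quiescent glia 3950524 and the other cells 18787551.

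The genes named were the 4 rule genes, list members with the most UMIs and those that went against their list, the 15 genes outside lists with the highest and the 15 with the lowest ratio to quiescent glia by the bound nearest 1, the 15 highest against the other cells, and the 10 of most excess variance, of which the text gives a selection. Genes outside these rules are described as chosen after their values were seen, as are the Sspo cells. Symbols were matched to RefSeq synonyms, and 574 listed genes were found and 23 were not. Excess variance was computed for genes with at least 100 UMIs. Python 3.11.15, NumPy 2.4.6, SciPy 1.17.1, pandas 2.3.3, Scanpy 1.11.5 (Scrublet, expected rate 0.06) and matplotlib 3.10.9 were used. The ratio and its interval were tested on simulated data. Alternatives covered the limit of the rule, each rule gene left out, the cell filters, doublets, cells with markers of other types, the scaling, the gene filter and the glia rule.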

Additional observations from a re-analysis of the deposited data

Results flagged for a closer look

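Outside the cell filter, 13 brain barcodes with at least 4000 genes (4019 to 5287) passed the ependymal rule, and the comparisons did not use them. They had 9653 to 20791 UMIs with a median of 12272, and 8 to 151 rule UMIs with a median of 103. Cilia family genes took 0.317 to 1.84% of their UMIs (median 1.14%), at most 9 UMIs of the glial genes were found in one, and 3 of them had at least 5 Sspo UMIs. With them included, the cilia family ratio to quiescent glia was 29.7 (28.5 to 31.1).

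Among kept brain cells outside the rule, 2 had at least 5 Sspo UMIs. The first had 18 Sspo UMIs, 4 rule UMIs and 30 cilia family UMIs of 3404 in all, with 4 UMIs of Spdef, 8 of Wfdc2 and 15 of Spp2. The second had 10 Sspo UMIs, 2 rule UMIs and 22 cilia family UMIs of 1644, with 0 of Spdef and Wfdc2 and 1 of Spp2.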

How the results depend on the processing

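No paired analysis was possible because each tissue had 1 library and no replicate numbers. Of 95 recomputed summary values, 86 stayed within their limits and 9 moved. Removal of cells with UMIs of other types left 29 cells, with 474 genes lower than in quiescent glia, 664 lower than in the other cells and a cilia family ratio of 25.3. Median-ratio scaling gave a cilia family ratio of 24.3, since it rescaled every ratio so that common genes, at a median of 1.21 (0.28 on the log2 scale), lie at 1. Genes only just past 4-fold over quiescent glia, such as Cfap20, Cfap36, Dynll1, Ttc8, Fzd3 and Dchs1, fall short of 4-fold with it. With no gene filter 1778 genes were higher than in quiescent glia. With at least 100 UMIs, 470 were higher and 705 lower than in quiescent glia and 792 higher than in the other cells. Of 1185 recomputed values of single genes and lists, 932 stayed within their interval, 251 moved and 2 that were past 4-fold crossed 1. A further 14 that were not past 4-fold crossed 1, among them the cell cycle list (0.389 to 1.05) and the neuroblast list (0.657 to 1.42) against glia with at least 30 glial UMIs, the oligodendrocyte list at a rule of 3 UMIs (0.347 to 1.68), and the mural list in 5 settings (0.961 to at most 1.56). The fibroblast list was at 1.18 against glia with at least 30 glial UMIs, and 0.191 in the main setting, and the cause was not tested. The subcommissural list was at 5.10 in the main setting and 0.780 without the Sspo cells, a setting chosen after seeing the data. It was at 3.25 at a rule of 10 UMIs and 3.61 as the mean of per-cell CPM. With Foxj1 or Dynlrb2 left out of the rule it was at 3.82 or 2.41. Of 735 values past 4-fold, 715 remained so. The rule at 3 or 10 UMIs gave 118 or 99 cells. With 1 library, the spread between animals was not measured.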
